A study of Danio rerio with 14 samples.

Results

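The genes called broadly expressed here, by limits on level and evenness, that were higher in *psmb1* mutants in both cranial cell types comprised 150 genes of the 32520 in the count tables. They were chosen from their measured values. Counts were scaled to CPM, a gene's count divided by its library's total and multiplied by 1000000, and a gene was kept if a group mean reached 5 CPM and if its wild-type/heterozygous levels in *sox10*+ and *mylz2*+ cells (CPM + 1) lay within 4-fold of each other, which 9967 genes met. The log2 ratio of the mutant mean to the wild-type/heterozygous mean (each + 1) was then centred on the median of the kept genes in each cell type, and these 2 values are called centred log2 ratios. A gene qualified if both were at least 0.8 and every mutant library lay above every wild-type/heterozygous library in both cell types. This held for 423 kept genes (4.24%), of which the 150 with the highest lower value of the 2 centred ratios were taken. A mutant group alone could meet the limit of 5 CPM. Of the 150 genes, 46 averaged under 5 CPM in wild-type/heterozygous *sox10*+ cells and 58 in wild-type/heterozygous *mylz2*+ cells. The name broadly expressed thus stands for these limits and not for a high level in wild-type/heterozygous cells. The same limits turned round, for genes lower in both mutants, were met by 78 kept genes (0.783%). The 2 counts cannot be weighed against each other, because overlap was judged on CPM that were not centred. Before centring, the median log2 ratio of the kept genes was 0.232 in *sox10*+ and 0.390 in *mylz2*+ cells. Because the measured values chose the members, their levels are given as a description. No test of mutant against wild-type/heterozygous is attached to them.

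The proteasome is the large protease that degrades proteins marked with chains of ubiquitin. Its barrel-shaped 20S core is built of rings of alpha and beta subunits, the catalytic sites lie on beta subunits inside the barrel, and 19S caps bind, unfold, and feed in the substrates. The ATPase p97 (*vcp*) and its partners pull ubiquitin-marked proteins out of membranes and complexes ahead of degradation. When proteasome activity falls, animal cells are known to raise transcripts of many proteasome subunits together, along with genes of autophagy and oxidant defense.

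The study set zebrafish larvae homozygous for the *psmb1* hi2939 allele, a retroviral insertion in an intron of *psmb1*, against pooled wild-type and heterozygous larvae, abbreviated WH. All libraries came from heads of larvae at 72 hours postfertilization (hpf), dissociated and sorted for one of 2 reporters, *sox10*:kaede or *mylz2*:mCherry, with 20 to 25 heads pooled per library. For *sox10*+ cells 7000 cells were sorted per library from 3 mutant and 4 WH pools, and for *mylz2*+ cells 1500 cells from 3 mutant and 4 WH pools. Both the allele and a reporter limit the groups as models. According to the study, mutants still made wild-type *psmb1* transcript, at a reduced level by qRT-PCR, and proteasome assembly was strongly impaired on native gels. The *sox10* reporter also labels cells outside the cranial neural crest, such as those of the ear.

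Library totals ranged from 59318933 to 72034939 counts in mutant and 54824619 to 62057318 in WH *sox10*+ cells, and from 83947537 to 103563447 in mutant and 69357630 to 78521766 in WH *mylz2*+ cells. The labelled cell types carried their defining markers: 10 cartilage and neural crest genes summed to 61240 to 84913 CPM in mutant and 97754 to 137174 CPM in WH *sox10*+ cells, and 7 fast muscle genes to 59073 to 73707 CPM in mutant and 93454 to 97132 CPM in WH *mylz2*+ cells. Both sums were lower in every mutant library, and in bulk samples fewer cells of a type and less RNA per cell cannot be told apart. Of all genes tested with edgeR's quasi-likelihood test, 797 of 21476 differed between mutant and WH *sox10*+ cells (3.71%; 452 higher, 345 lower) and 4553 of 20413 between mutant and WH *mylz2*+ cells (22.3%; 2189 higher, 2364 lower). The *sox10*+ count fell to 293, 359, and 350 without mutant replicate 1, 3, and 4 and to 467 without WH replicate 2. Scaling by library totals alone raised the share of called genes that were higher to 71.9%, against 56.7%, in *sox10*+ cells and to 79.5%, against 48.1%, in *mylz2*+ cells.

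*psmb1* itself was not among the members. It had 98.4, 74.2, and 88.0 CPM in mutant *sox10*+ cells, against 53.0, 83.0, 88.1, and 84.1 CPM in WH *sox10*+ cells. These groups overlapped (log2 fold change 0.04 ± 0.20 (SE), edgeR adjusted p = 0.96). The study's qRT-PCR found less *psmb1* transcript in mutants, by a different assay from the counts of these sorted cells. It had 102, 86.7, and 87.6 CPM in mutant *mylz2*+ cells, against 115, 132, 136, and 121 CPM in WH *mylz2*+ cells. Here every mutant library lay below every WH library (log2 fold change -0.85 ± 0.14 (SE), edgeR adjusted p = 0.0016). Set against the mean of *psmb2* to *psmb7*, the other constitutive beta subunits, *psmb1* stood at a ratio of 0.198 ± 0.0124 (SD, n = 3) in mutant and 0.830 ± 0.137 (SD, n = 4) in WH *sox10*+ cells, and of 0.124 ± 0.0182 (SD, n = 3) in mutant and 0.671 ± 0.0351 (SD, n = 4) in WH *mylz2*+ cells. The mean of *psmb2* to *psmb7* was 439 ± 47.8 CPM in mutant and 94.4 ± 24.6 CPM in WH *sox10*+ cells, and 748 ± 42.6 CPM in mutant and 188 ± 22.3 CPM in WH *mylz2*+ cells. The groups of this ratio did not overlap in either cell type, but 6 of the 7 genes in it were members, so the separation carries the choice of members with it.

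**Figure D1:**
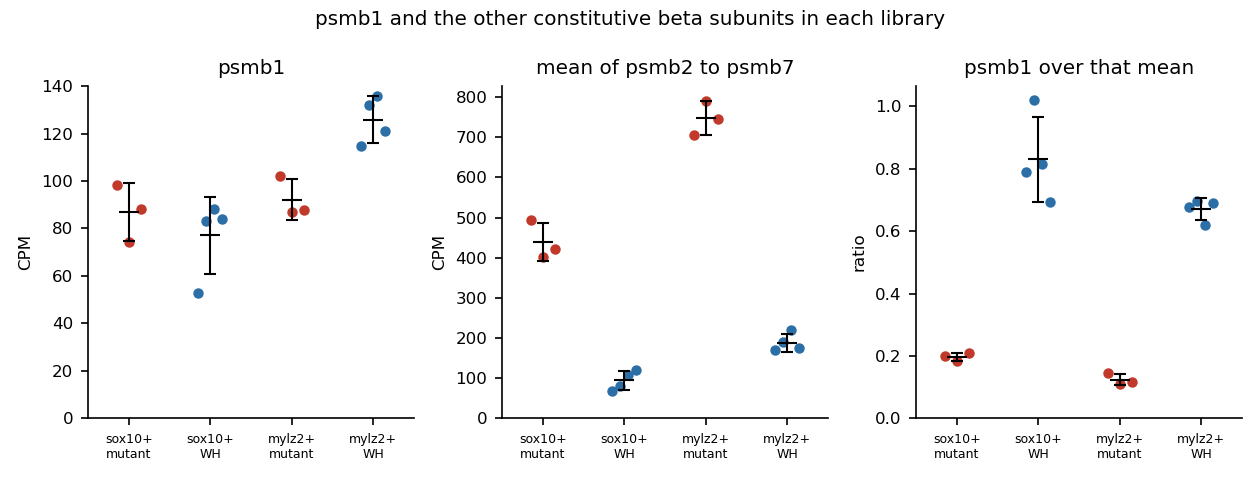
CPM of *psmb1* (left), mean CPM of *psmb2* to *psmb7* (middle), and the ratio of the 2 (right) in each library, with mutants in red and pooled wild-type and heterozygous larvae (WH) in blue; lines and bars are mean ± SD (n = 3 mutant and 4 WH libraries per cell type). The ratio averaged 0.198 in mutant and 0.830 in WH *sox10*+ cells, and 0.124 in mutant and 0.671 in WH *mylz2*+ cells.

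The centred log2 ratios of the 150 members ranged from 1.31 to 5.57 in *sox10*+ cells (median 1.82) and from 1.31 to 3.48 in *mylz2*+ cells (median 1.75). On the CPM + 1 scale their median fold was 4.16 in *sox10*+ and 4.41 in *mylz2*+ cells. The ratio was larger in *sox10*+ cells for 94 members and larger in *mylz2*+ cells for 56, and 27 members reached 2 or more in both. At the limit, *nfx1*, *cul1*, and *tmed4* were the last taken, with a lower centred ratio of 1.31 each, and a *psmd2* copy (ENSDARG00000103190; 1.31), *ssh1*, and *psmd4* were the first left out. Symbols came from a gene name table and were put in lower case; 146 members had one. Only 45 members belonged to the gene lists of known pathways, and 105 belonged to none of them.

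**Figure D2:**
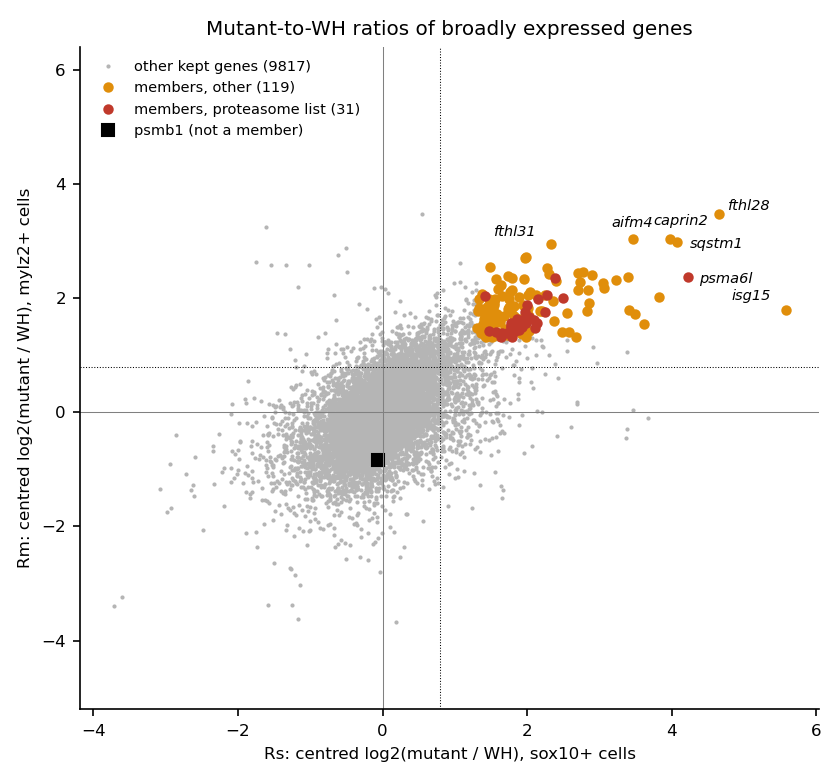
Centred log2 ratio of mutant to WH in *sox10*+ cells (Rs, x axis) and *mylz2*+ cells (Rm, y axis) for the 9967 kept genes; members are orange or, for the proteasome list, red, and *psmb1* is the black square. Dotted lines mark the limit of 0.8; the medians of all members were 1.82 and 1.75, and *fthl28*, *isg15*, *sqstm1*, *aifm4*, *caprin2*, and *psma6l* reach farther out.

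Proteasome genes were the largest group, with 31 members from a list of 63 matched genes. Of the 40 genes for constitutive 20S and 19S subunits that reached 5 CPM, 26 were members and 39 met every limit of the choice. *psmb1* was the single exception. Without it, the centred log2 ratios of these subunits ran from 1.26 to 4.23 in *sox10*+ cells and from 0.96 to 2.37 in *mylz2*+ cells. The whole list summed to between 14837 and 16948 CPM in mutant and 3063 and 4384 CPM in WH *sox10*+ cells, and to between 24021 and 26862 CPM in mutant and 6558 and 8115 CPM in WH *mylz2*+ cells. Proteasome transcripts thus took up 1.48% to 1.69% of all counts in mutant *sox10*+ cells, against 0.306% to 0.438% in WH *sox10*+ cells.

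Among the 20S beta subunits, *psmb2*, *psmb3*, *psmb4*, *psmb5*, *psmb6*, and *psmb7* were all members. *psmb2*, a noncatalytic ring subunit, had 422, 353, and 335 CPM in mutant *sox10*+ cells, against 55.7, 62.8, 70.5, and 90.3 CPM in WH *sox10*+ cells. It had 477, 516, and 502 CPM in mutant *mylz2*+ cells, against 82.3, 100, 111, and 86.0 CPM in WH *mylz2*+ cells. All mutant libraries stood above all WH libraries in both cell types, as the choice of members required. The catalytic subunits *psmb5*, *psmb6*, and *psmb7* were higher in every mutant library too, with centred log2 ratios of 1.77 in *sox10*+ and 1.56 in *mylz2*+ cells for *psmb5*, 1.78 in *sox10*+ and 1.49 in *mylz2*+ cells for *psmb6*, and 2.11 in *sox10*+ and 1.47 in *mylz2*+ cells for *psmb7*.

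Of the 10 alpha subunit genes, 9 were members, and the other one, a second *psma6* copy (ENSDARG00000019398), met every limit but ranked lower. The alpha members *psma1*, *psma2*, *psma2a*, *psma3*, *psma4*, *psma5*, and *psma8* had centred log2 ratios between 1.47 and 2.09 in *sox10*+ and between 1.32 and 1.65 in *mylz2*+ cells. *psma6l* stood apart from these. It had 23.4, 22.5, and 22.8 CPM in mutant *sox10*+ cells, against 0.0182, 0.306, 0.0173, and 0 CPM in WH *sox10*+ cells, and 20.1, 18.9, and 16.2 CPM in mutant *mylz2*+ cells, against 2.67, 2.39, 1.28, and 1.1 CPM in WH *mylz2*+ cells. WH *sox10*+ cells thus held almost no *psma6l* reads, while the *psma6* copy among the members (ENSDARG00000013966) averaged 117 ± 5.75 CPM in mutant and 32.6 ± 6.61 CPM in WH *sox10*+ cells (SD, n = 3 and 4). Reads shared between these copies could be split by the counting, so the division between them is uncertain.

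In the 19S cap, 2 of 7 ATPase genes and 9 of 16 non-ATPase genes were members, and all 23 met every limit. *psmd1*, the scaffold subunit that recruits ubiquitin receptors, had 1220.5, 1145, and 1162 CPM in mutant *sox10*+ cells, against 228, 234, 272, and 243 CPM in WH *sox10*+ cells. It had 1997, 2026, and 1735 CPM in mutant *mylz2*+ cells, against 466, 391, 491, and 479.8 CPM in WH *mylz2*+ cells. Mutant libraries were close to each other, and the choice required them to lie above WH libraries. The deubiquitinase *psmd14* had centred log2 ratios of 2.14 in *sox10*+ and 1.57 in *mylz2*+ cells, the ubiquitin receptor *adrm1* 1.99 in *sox10*+ and 1.57 in *mylz2*+ cells, and the ATPases *psmc4* and *psmc1b* 1.77 in *sox10*+ and 1.51 in *mylz2*+ cells and 1.93 in *sox10*+ and 1.5 in *mylz2*+ cells. Of the remaining member subunits, *psmd3*, *psmd6*, *psmd7*, *psmd13*, and both *psmd11* copies lay between 1.64 and 1.99 in *sox10*+ cells and between 1.33 and 1.88 in *mylz2*+ cells.

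Of the 7 assembly chaperones, 3 were members. *psmd10* (gankyrin), which helps assemble the 19S base, had 75.1, 79.1, and 81.6 CPM in mutant *sox10*+ cells, against 9.41, 9.20, 11.3, and 17.8 CPM in WH *sox10*+ cells. It had 100.3, 124, and 105 CPM in mutant *mylz2*+ cells, against 14.5, 13.4, 20.6, and 13.4 CPM in WH *mylz2*+ cells. *psmd5*, another base chaperone, had 124, 109, and 106 CPM in mutant *sox10*+ cells, against 10.1, 10.6, 11.6, and 32.5 CPM in WH *sox10*+ cells. WH *sox10*+ replicate 4 stood above the other WH libraries for *psmd5* and, as the choice required, below every mutant library. *psmd5* had 81.4, 92.0, and 68.5 CPM in mutant *mylz2*+ cells, against 11.6, 18.4, 15.2, and 12.6 CPM in WH *mylz2*+ cells. *psmg2*, which pairs alpha subunits of the core, had centred log2 ratios of 1.42 in *sox10*+ and 2.03 in *mylz2*+ cells. *pomp* and *psmg1* met every limit without ranking high enough, and *psmg3* and *psmd9* did not, with centred log2 ratios of 0.24 and 0.51 in *sox10*+ and 0.04 and 0.89 in *mylz2*+ cells.

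Of 9 activators, inhibitors, and bound enzymes, 2 were members and 3 met every limit, the other being *psmf1* (centred log2 ratios 1.18 in *sox10*+ and 1.43 in *mylz2*+ cells). *ecpas* (ECM29), a scaffold that holds core and cap together, had 239, 245, and 253 CPM in mutant *sox10*+ cells, against 38.9, 39.7, 52.3, and 38.4 CPM in WH *sox10*+ cells. It had 329.9, 334, and 257 CPM in mutant *mylz2*+ cells, against 55.6, 48.5, 57.8, and 60.1 CPM in WH *mylz2*+ cells. *usp14*, a deubiquitinase of the cap, had centred log2 ratios of 1.89 in *sox10*+ and 1.44 in *mylz2*+ cells. *psme1* and *psme2*, subunits of the PA28 activator, failed the evenness limit and so were not members. *psme1* averaged 73.1 ± 8.72 CPM in mutant and 0.332 ± 0.414 CPM in WH *sox10*+ cells (log2 fold change 7.64 ± 1.00 (SE), edgeR adjusted p = 0.0032) and 111 ± 16.9 CPM in mutant and 8.98 ± 2.39 CPM in WH *mylz2*+ cells (log2 fold change 3.21 ± 0.24 (SE), edgeR adjusted p = 4.2e-05). *psme2* rose as well (log2 fold change 6.47 ± 1.2 (SE), edgeR adjusted p = 0.018 in *sox10*+ cells and a log2 fold change of 2.94 ± 0.32 (SE), edgeR adjusted p = 1.9e-04 in *mylz2*+ cells). The remaining ones missed the limit of 0.8 in one or both cell types. Their centred log2 ratios were 0.47 in *sox10*+ and 0.81 in *mylz2*+ cells for *uchl5*, 0.66 and 1.16 for *psme3*, 1.27 and 0.33 for 1 *psme4* gene (ENSDARG00000018742), and 1.74 and 0.30 for the other (ENSDARG00000087911). Of the 7 immune-type and thymus-type beta subunit genes matched, 1 reached 5 CPM, *psmb10*, with centred log2 ratios of -0.19 in *sox10*+ and 0.45 in *mylz2*+ cells.

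**Figure D3:**
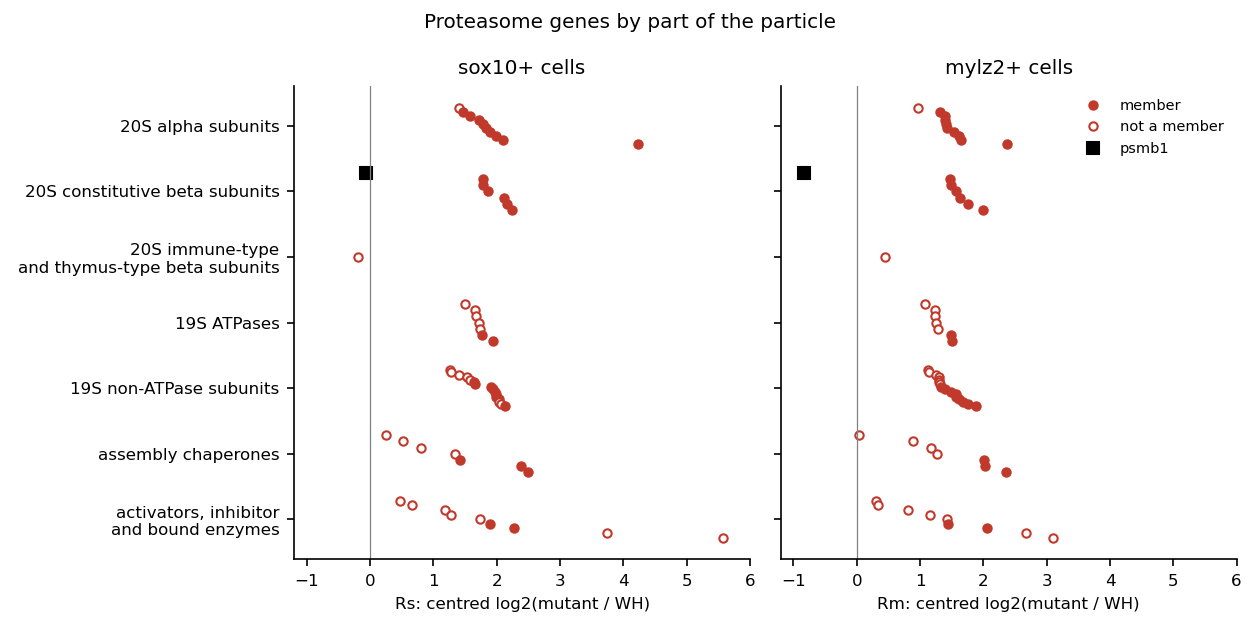
Centred log2 ratio of mutant to WH for each proteasome gene that reached 5 CPM, grouped by part of the particle, in *sox10*+ cells (left) and *mylz2*+ cells (right); filled circles are members, open circles are not, and the black square is *psmb1*. Constitutive subunits of the core and cap other than *psmb1* lie between 1.26 and 4.23 in *sox10*+ and between 0.96 and 2.37 in *mylz2*+ cells, with *psmb1* at -0.06 and -0.84 and the immune-type *psmb10* at -0.19 and 0.45.

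The 28 proteasome list genes that were tested but were not members allow a count with the edgeR test: 17 rose in *sox10*+ cells, where 2.1% of all genes tested rose, and 21 in *mylz2*+ cells, where 10.7% did, and *psmb1* fell in *mylz2*+ cells. Their median log2 fold change was 1.56 in *sox10*+ and 1.23 in *mylz2*+ cells. Among those with the highest levels, the ATPase *psmc6* had a log2 fold change of 1.77 ± 0.15 (SE), edgeR adjusted p = 4.3e-04 in *sox10*+ cells and a log2 fold change of 1.24 ± 0.12 (SE), edgeR adjusted p = 1.0e-04 in *mylz2*+ cells. The base scaffold *psmd2* (ENSDARG00000099653) had a log2 fold change of 2.18 ± 0.19 (SE), edgeR adjusted p = 4.7e-04 in *sox10*+ cells and a log2 fold change of 1.30 ± 0.11 (SE), edgeR adjusted p = 5.2e-05 in *mylz2*+ cells. *psmc1*, *psmc2*, and *psmc5* rose in both cell types too, by 1.77 to 1.84 in *sox10*+ and 1.07 to 1.27 in *mylz2*+ cells on the log2 scale. The named genes *psmc6*, *psmd2*, *psmc1*, *psmc2*, and *psmc5* all met every limit of the choice and only ranked lower. Of the whole list 47 genes met every limit, 31 of them members, so the counts over non-members are not free of the limits.

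The list of ubiquitin handling and the p97 pathway held 6 members, p97 and genes whose products bind or work with it or the proteasome. *vcp*, p97 itself, had 1684, 1581, and 1489.6 CPM in mutant *sox10*+ cells, against 336, 423, 504, and 349 CPM in WH *sox10*+ cells. It had 2083, 2270.0, and 1845 CPM in mutant *mylz2*+ cells, against 605, 486, 621, and 588 CPM in WH *mylz2*+ cells. *ufd1*, a part of the dimer that brings ubiquitin-marked substrates to p97, had 283, 260.1, and 294 CPM in mutant *sox10*+ cells, against 36.3, 50.1, 47.8, and 68.4 CPM in WH *sox10*+ cells. Its partner *nploc4* had centred log2 ratios of 1.5 in *sox10*+ and 1.83 in *mylz2*+ cells. *ufd1* had 329.9, 368, and 342 CPM in mutant *mylz2*+ cells, against 70.2, 69.6, 90.9, and 75.9 CPM in WH *mylz2*+ cells. For *vcp* and *ufd1* the groups lay apart in both cell types, as the choice required. The p97 cofactor *nsfl1c* (p47) had centred log2 ratios of 1.72 in *sox10*+ and 1.35 in *mylz2*+ cells, and the zinc finger proteins *zfand1* and *zfand2b*, which link p97 or the proteasome to stressed proteins, 1.95 in *sox10*+ and 1.60 in *mylz2*+ cells and 1.89 in *sox10*+ and 1.63 in *mylz2*+ cells. Outside the list, the p97 partners *plaa* (centred log2 ratios 1.78 in *sox10*+ and 1.75 in *mylz2*+ cells) and *aspscr1* (centred log2 ratios 2.37 in *sox10*+ and 1.60 in *mylz2*+ cells) were members as well, named after their values were seen.

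Enzymes that add or remove ubiquitin contributed further members. *uchl1*, a ubiquitin hydrolase known from neurons, had 131, 142, and 126 CPM in mutant *sox10*+ cells, against 24.8, 33.6, 48.8, and 35.3 CPM in WH *sox10*+ cells. It had 262, 328, and 277 CPM in mutant *mylz2*+ cells, against 29.6, 50.8, 61.7, and 43.1 CPM in WH *mylz2*+ cells. The groups lay apart in both, as the choice required. A list of 9 neuron genes summed to 459 to 617 CPM in mutant and 801 to 1106 CPM in WH *sox10*+ cells. In *mylz2*+ cells the list summed to 250.0 to 285 CPM in mutant and 233 to 281 CPM in WH libraries. The neuron sum was lower in every mutant *sox10*+ library and overlapped between genotypes in *mylz2*+ cells. Its part in the *uchl1* levels was not tested. *cul1*, the scaffold of SCF ubiquitin ligases, had centred log2 ratios of 1.51 in *sox10*+ and 1.31 in *mylz2*+ cells, and *cops4*, a subunit of the COP9 signalosome that acts on cullins, 1.46 in *sox10*+ and 1.60 in *mylz2*+ cells. Of 6 other COP9 genes, brought together after their values were seen, 1 rose in *sox10*+ cells and 4 in *mylz2*+ cells (edgeR). Over all genes tested, 2.1% rose in *sox10*+ and 10.7% in *mylz2*+ cells. *cops3* rose in both (log2 fold change 1.41 ± 0.18 (SE), edgeR adjusted p = 0.0028 in *sox10*+ cells; log2 fold change 1.29 ± 0.11 (SE), edgeR adjusted p = 7.3e-05 in *mylz2*+ cells). *cops2* had log2 fold changes of 0.57 in *sox10*+ (edgeR adjusted p = 0.25) and 0.85 in *mylz2*+ cells (edgeR adjusted p = 6.1e-04), *cops5* log2 fold changes of 0.29 in *sox10*+ (edgeR adjusted p = 0.69) and 0.58 in *mylz2*+ cells (edgeR adjusted p = 0.012), and *cops8* log2 fold changes of 0.54 in *sox10*+ (edgeR adjusted p = 0.36) and 0.89 in *mylz2*+ cells (edgeR adjusted p = 0.0035). *cops7a* had log2 fold changes of 0.35 in *sox10*+ (edgeR adjusted p = 0.49) and 0.26 in *mylz2*+ cells (edgeR adjusted p = 0.26), and *cops9* log2 fold changes of -0.11 in *sox10*+ (edgeR adjusted p = 0.92) and -0.45 in *mylz2*+ cells (edgeR adjusted p = 0.18). The second *cul1* gene, *cul1a*, had log2 fold changes of 0.49 in *sox10*+ (edgeR adjusted p = 0.10) and 0.78 in *mylz2*+ cells (edgeR adjusted p = 6.3e-04), and the ubiquitin hydrolase *uchl3* log2 fold changes of 0.35 in *sox10*+ (edgeR adjusted p = 0.71) and 0.05 in *mylz2*+ cells (edgeR adjusted p = 0.85). *desi1* (ENSDARG00000089529), an isopeptidase of the SUMO pathway, was the fifth-ranked member. It had 116, 98.1, and 93.4 CPM in mutant *sox10*+ cells, against 10.3, 12.7, 13.5, and 11.3 CPM in WH *sox10*+ cells, and 47.1, 55.1, and 35.3 CPM in mutant *mylz2*+ cells, against 4.2, 4.14, 7.15, and 6.54 CPM in WH *mylz2*+ cells. A second gene with the same symbol (ENSDARG00000033140) had a log2 fold change of -0.40 ± 0.32 (SE), edgeR adjusted p = 0.64 in *sox10*+ cells and a log2 fold change of 0.87 ± 0.20 (SE), edgeR adjusted p = 0.011 in *mylz2*+ cells. *rnf14* (ENSDARG00000078683) and *trim25*, both ubiquitin ligases, had centred log2 ratios of 2.70 in *sox10*+ and 2.15 in *mylz2*+ cells and 2.25 in *sox10*+ and 2.06 in *mylz2*+ cells. Another *rnf14* gene (ENSDARG00000043905) had log2 fold changes of 0.69 in *sox10*+ (edgeR adjusted p = 0.30) and 0.84 in *mylz2*+ cells (edgeR adjusted p = 0.0012). A further one (ENSDARG00000104631) had log2 fold changes of 3.88 in *sox10*+ (edgeR adjusted p = 0.17) and 2.19 in *mylz2*+ cells (edgeR adjusted p = 0.28).

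The autophagy list held 2 members. *sqstm1* (p62), the receptor that carries ubiquitin-marked cargo to autophagosomes, had 738, 655, and 737 CPM in mutant *sox10*+ cells, against 33.2, 34.2, 33.5, and 38.9 CPM in WH *sox10*+ cells. It had 369, 482, and 431 CPM in mutant *mylz2*+ cells, against 29.6, 39.4, 57.3, and 35.4 CPM in WH *mylz2*+ cells. This was 19.8-fold in *sox10*+ and 10.3-fold in *mylz2*+ cells on the CPM + 1 scale, and the WH ranges of the 2 cell types overlapped. *atg14*, which directs the VPS34 lipid kinase to autophagosome formation, had 61.8, 68.1, and 61.8 CPM in mutant *sox10*+ cells, against 17.0, 19.1, 17.7, and 14.8 CPM in WH *sox10*+ cells. It had 43.6, 36.8, and 32.0 CPM in mutant *mylz2*+ cells, against 12.9, 8.10, 9.67, and 11.4 CPM in WH *mylz2*+ cells. *pik3r4*, the regulatory subunit of that kinase, was a member from outside the list (centred log2 ratios 1.61 in *sox10*+ and 1.64 in *mylz2*+ cells). The kinase gene *pik3c3* had a log2 fold change of 0.62 ± 0.15 (SE), edgeR adjusted p = 0.054 in *sox10*+ and a log2 fold change of 1.28 ± 0.15 (SE), edgeR adjusted p = 2.4e-04 in *mylz2*+ cells. Other subunits of VPS34 complexes did not pass: *becn1* had log2 fold changes of -0.09 in *sox10*+ (edgeR adjusted p = 0.92) and -0.67 in *mylz2*+ cells (edgeR adjusted p = 0.084), and *uvrag* log2 fold changes of 0.86 in *sox10*+ (edgeR adjusted p = 0.34) and 0.14 in *mylz2*+ cells (edgeR adjusted p = 0.74).

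Redox enzymes made up a further group, 5 of them from the oxidant defense list. *hmox1*, which breaks down heme, had 24.7, 22.6, and 16.7 CPM in mutant *sox10*+ cells, against 5.03, 3.56, 2.92, and 3.85 CPM in WH *sox10*+ cells. It had 20.1, 37.2, and 21.5 CPM in mutant *mylz2*+ cells, against 0.586, 4.77, 3.08, and 0.383 CPM in WH *mylz2*+ cells. WH *mylz2*+ libraries differed among themselves and, as the choice required, none reached a mutant library. *prdx6*, a peroxiredoxin, had 446, 372, and 417 CPM in mutant *sox10*+ cells, against 82.4, 118, 149, and 185 CPM in WH *sox10*+ cells. It had 372, 414, and 396 CPM in mutant *mylz2*+ cells, against 75.2, 86.7, 108, and 84.1 CPM in WH *mylz2*+ cells. *gsr* (glutathione reductase), *txnl1* (a thioredoxin-like protein that binds the 19S cap), and *prdx1* (ENSDARG00000058734) had centred log2 ratios of 1.54 in *sox10*+ and 1.88 in *mylz2*+ cells, 1.45 in *sox10*+ and 1.68 in *mylz2*+ cells, and 1.44 in *sox10*+ and 1.84 in *mylz2*+ cells. The second *prdx1* gene (ENSDARG00000025350) had a log2 fold change of -0.07 ± 0.17 (SE), edgeR adjusted p = 0.91 in *sox10*+ cells and a log2 fold change of 0.09 ± 0.14 (SE), edgeR adjusted p = 0.73 in *mylz2*+ cells, and its sign in *sox10*+ cells changed with scaling by library totals.

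Other peroxiredoxins and *gpx4*, a lipid peroxidase, did not pass the test in either cell type. *prdx3* had log2 fold changes of 0.21 in *sox10*+ (edgeR adjusted p = 0.81) and -0.25 in *mylz2*+ cells (edgeR adjusted p = 0.25), *prdx4* log2 fold changes of 0.27 in *sox10*+ (edgeR adjusted p = 0.68) and 0.11 in *mylz2*+ cells (edgeR adjusted p = 0.59), *prdx5* log2 fold changes of -0.08 in *sox10*+ (edgeR adjusted p = 0.93) and -0.44 in *mylz2*+ cells (edgeR adjusted p = 0.11), and *gpx4* log2 fold changes of 0.21 in *sox10*+ (edgeR adjusted p = 0.80) and 0.14 in *mylz2*+ cells (edgeR adjusted p = 0.57).

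Outside the list, the thioredoxin *txnb* ranked sixth. It had 84.9, 71.7, and 114 CPM in mutant *sox10*+ cells, against 9.72, 8.43, 13.9, and 11.5 CPM in WH *sox10*+ cells. It had 60.5, 76.5, and 68.5 CPM in mutant *mylz2*+ cells, against 6.37, 11.2, 11.2, and 6.15 CPM in WH *mylz2*+ cells. The other thioredoxin gene *txn* had a log2 fold change of 0.91 ± 0.22 (SE), edgeR adjusted p = 0.053 in *sox10*+ and a log2 fold change of 1.13 ± 0.15 (SE), edgeR adjusted p = 6.2e-04 in *mylz2*+ cells. *aifm4*, of the apoptosis-inducing factor family of oxidoreductases, ranked second. It had 121, 101, and 90.4 CPM in mutant *sox10*+ cells, against 6.22, 10.3, 6.4, and 5.62 CPM in WH *sox10*+ cells, and 110.5, 128, and 99.6 CPM in mutant *mylz2*+ cells, against 8.79, 5.58, 15.7, and 8.36 CPM in WH *mylz2*+ cells. The mitochondrial *aifm1* of the same family had log2 fold changes of 0.02 in *sox10*+ (edgeR adjusted p = 0.99) and -0.89 in *mylz2*+ cells (edgeR adjusted p = 0.0014). *aifm2*, a family member that protects lipids from oxidation in mammals, had centred log2 ratios of 1.58 in *sox10*+ and 1.72 in *mylz2*+ cells, and the sulfide-oxidizing enzyme *sqor* 1.93 in *sox10*+ and 1.37 in *mylz2*+ cells.

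The leading member was a ferritin gene. *fthl28*, a heavy-chain-like ferritin of the iron storage family, had 267, 261, and 306 CPM in mutant *sox10*+ cells, against 8.65, 11.8, 4.32, and 9.11 CPM in WH *sox10*+ cells. It had 127, 213, and 145 CPM in mutant *mylz2*+ cells, against 6.74, 15.9, 12.1, and 5.85 CPM in WH *mylz2*+ cells. This amounted to 29.5-fold in *sox10*+ and 14.6-fold in *mylz2*+ cells on the CPM + 1 scale. *fthl31* had 209, 206, and 258 CPM in mutant *sox10*+ cells, against 28.9, 37.9, 40.0, and 41.8 CPM in WH *sox10*+ cells, and 372, 486, and 444 CPM in mutant *mylz2*+ cells, against 27.5, 33.7, 85.8, and 21.6 CPM in WH *mylz2*+ cells. The WH *mylz2*+ libraries of *fthl31* were uneven, with replicate 3 the highest. *slc40a1* (ferroportin), which exports iron from cells, had 102, 92.0, and 99.3 CPM in mutant *sox10*+ cells, against 31.0, 34.4, 35.4, and 9.35 CPM in WH *sox10*+ cells. It had 74.8, 110.1, and 77.7 CPM in mutant *mylz2*+ cells, against 14.7, 14.6, 24.2, and 10.7 CPM in WH *mylz2*+ cells. WH *sox10*+ replicate 4 was the lowest library for *slc40a1*.

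Ferritin genes that were not members differed from one another. *fthl27* rose (log2 fold change 1.40 ± 0.17 (SE), edgeR adjusted p = 0.0025 in *sox10*+ cells; log2 fold change 1.91 ± 0.19 (SE), edgeR adjusted p = 1.2e-04 in *mylz2*+ cells). *fthl30* rose as well (log2 fold change 1.63 ± 0.29 (SE), edgeR adjusted p = 0.014 in *sox10*+ cells and a log2 fold change of 1.89 ± 0.48 (SE), edgeR adjusted p = 0.018 in *mylz2*+ cells). *fth1a* had a log2 fold change of 0.08 ± 0.25 (SE), edgeR adjusted p = 0.94 in *sox10*+ cells and a log2 fold change of 0.38 ± 0.15 (SE), edgeR adjusted p = 0.10 in *mylz2*+ cells, and *fth1* (ENSDARG00000007975) a log2 fold change of -0.17 ± 0.28 (SE), edgeR adjusted p = 0.86 and a log2 fold change of -0.58 ± 0.22 (SE), edgeR adjusted p = 0.092. *fthl29* had log2 fold changes of 1.17 in *sox10*+ (edgeR adjusted p = 0.55) and 2.55 in *mylz2*+ cells (edgeR adjusted p = 0.0046). Of other iron genes, the uptake receptor *tfr1b* had log2 fold changes of 0.05 in *sox10*+ (edgeR adjusted p = 0.96) and -0.88 in *mylz2*+ cells (edgeR adjusted p = 0.002), the ferritin autophagy receptor *ncoa4* log2 fold changes of 0.08 in *sox10*+ (edgeR adjusted p = 0.90) and -0.03 in *mylz2*+ cells (edgeR adjusted p = 0.89), and the iron sensor *ireb2* log2 fold changes of 0.54 in *sox10*+ (edgeR adjusted p = 0.32) and 0.49 in *mylz2*+ cells (edgeR adjusted p = 0.023). The ferritin-like genes resemble each other in sequence, so reads could be divided among them by the counting. The ferritin and iron genes other than *fth1a* were brought together after their values were seen.

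**Figure D4:**
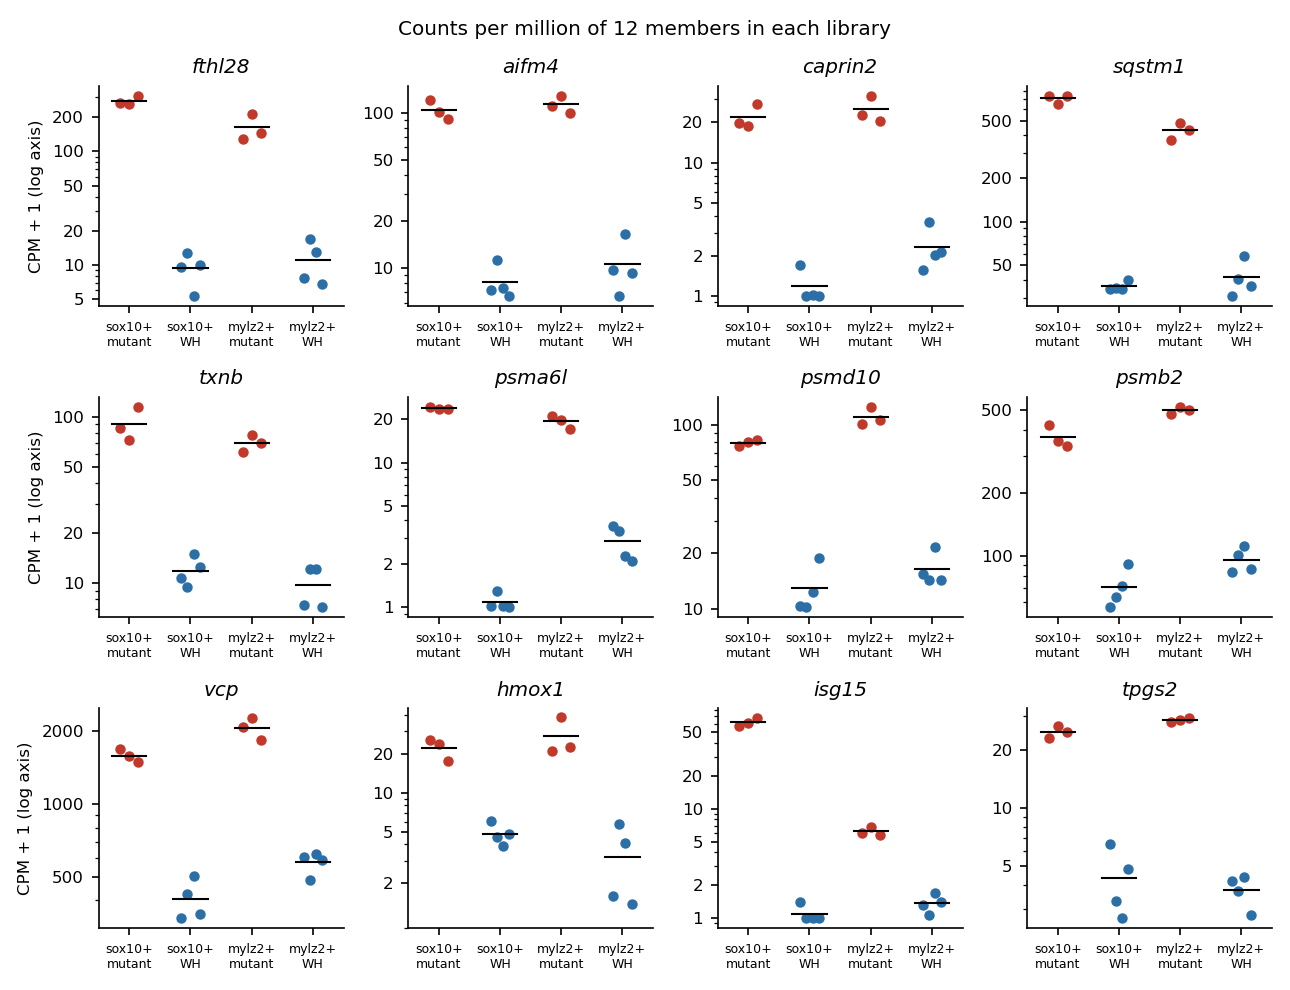
CPM + 1 on a log axis of 12 members in each library, with mutants in red left of WH in blue for *sox10*+ and then *mylz2*+ cells; black lines are group means (n = 3 mutant and 4 WH libraries per cell type). No mutant library overlaps a WH library in any panel, as the choice of members required; *isg15* averaged 60.8 CPM in mutant *sox10*+ and 5.22 CPM in mutant *mylz2*+ cells.

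Some members are known from interferon responses, grouped here after their values were seen. *isg15*, a ubiquitin-like modifier, had the largest *sox10*+ ratio of all members. It had 55.9, 60.2, and 66.4 CPM in mutant *sox10*+ cells, against 0.420, 0, 0, and 0 CPM in WH *sox10*+ cells. It had 5.03, 5.86, and 4.78 CPM in mutant *mylz2*+ cells, against 0.331, 0.0721, 0.715, and 0.396 CPM in WH *mylz2*+ cells. On the CPM + 1 scale this was 56.0-fold in *sox10*+ and 4.51-fold in *mylz2*+ cells, and 3 of 4 WH *sox10*+ libraries held no read. *b2m*, the light chain of class I histocompatibility molecules, had 25.9, 26.2, and 24.7 CPM in mutant *sox10*+ cells, against 3.23, 1.43, 1.76, and 6.71 CPM in WH *sox10*+ cells. It had 20.0, 22.0, and 19.2 CPM in mutant *mylz2*+ cells, against 2.57, 2.68, 2.88, and 1.14 CPM in WH *mylz2*+ cells. *mov10*, an antiviral RNA helicase, and *ifi27.7* had centred log2 ratios of 1.92 in *sox10*+ and 1.39 in *mylz2*+ cells and 2.68 in *sox10*+ and 1.32 in *mylz2*+ cells. Of interferon-linked genes that were not members, *isg20* had log2 fold changes of 1.01 in *sox10*+ (edgeR adjusted p = 0.076) and 1.86 in *mylz2*+ cells (edgeR adjusted p = 6.6e-05), *irf7* log2 fold changes of 0.91 in *sox10*+ (edgeR adjusted p = 0.42) and 1.70 in *mylz2*+ cells (edgeR adjusted p = 0.001), *irf1b* log2 fold changes of 1.86 in *sox10*+ (edgeR adjusted p = 0.25) and 1.19 in *mylz2*+ cells (edgeR adjusted p = 0.0022), and *irf9* log2 fold changes of 0.25 in *sox10*+ (edgeR adjusted p = 0.81) and -0.14 in *mylz2*+ cells (edgeR adjusted p = 0.68). A list of 4 macrophage and neutrophil genes summed to 15.4 to 22.8 CPM in mutant and 9.66 to 26.0 CPM in WH *sox10*+ cells, which overlapped. In *mylz2*+ cells the list summed to 10.33 to 31.5 CPM in mutant and 3.36 to 10.31 CPM in WH libraries. The *mylz2*+ sum was thus higher in every mutant library, though the lowest mutant barely exceeded the highest WH library. In mutant *mylz2*+ cells 1 of the 4 genes, the neutrophil and macrophage lysozyme *lyz*, was at 0, and the list's part in these results was not tested. *cd68*, a lysosomal protein of macrophages, was a member too (centred log2 ratios 1.53 in *sox10*+ and 1.82 in *mylz2*+ cells).

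Genes of microtubules and cilia formed another group, also assembled after the values were seen. *tpgs2*, a subunit of the enzyme complex that adds glutamate chains to tubulin, had 22.1, 25.5, and 23.6 CPM in mutant *sox10*+ cells, against 5.51, 2.32, 1.69, and 3.87 CPM in WH *sox10*+ cells. It had 26.9, 27.6, and 28.2 CPM in mutant *mylz2*+ cells, against 3.2, 2.71, 3.39, and 1.80 CPM in WH *mylz2*+ cells. *ttll1*, the catalytic subunit of that complex, had centred log2 ratios of 1.82 in *sox10*+ and 1.69 in *mylz2*+ cells. *cstpp1*, another subunit, had 81.2, 49.3, and 49.4 CPM in mutant *sox10*+ cells, against 16.3, 16.4, 13.8, and 11.8 CPM in WH *sox10*+ cells. It had 51.1, 63.7, and 54.2 CPM in mutant *mylz2*+ cells, against 8.04, 7.48, 9.25, and 4.54 CPM in WH *mylz2*+ cells. A subunit of the complex in mammals, *nicn1*, had log2 fold changes of -0.10 in *sox10*+ (edgeR adjusted p = 0.99) and 0.59 in *mylz2*+ cells (edgeR adjusted p = 0.56). A further subunit, *tpgs1*, had a log2 fold change of -0.15 ± 0.35 (SE), edgeR adjusted p = 0.91 in *sox10*+ cells and a log2 fold change of -0.25 ± 0.26 (SE), edgeR adjusted p = 0.58 in *mylz2*+ cells, and its sign in *mylz2*+ cells turned under library totals. Cilium-linked members included *dpcd* (centred log2 ratios 2.84 in *sox10*+ and 2.14 in *mylz2*+ cells), *cfap298* (centred log2 ratios 1.69 in *sox10*+ and 1.46 in *mylz2*+ cells), and *ttc23* (centred log2 ratios 1.75 in *sox10*+ and 1.99 in *mylz2*+ cells), and *tbcd* and *arl2*, which act in tubulin folding, had centred log2 ratios of 1.40 in *sox10*+ and 1.49 in *mylz2*+ cells and 1.45 in *sox10*+ and 1.82 in *mylz2*+ cells.

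*hsph1*, an exchange factor for the Hsp70 chaperones, was the single member from the list of co-chaperones and chaperonin. It had 78.8, 88.7, and 93.4 CPM in mutant *sox10*+ cells, against 28.1, 15.8, 10.1, and 14.9 CPM in WH *sox10*+ cells. It had 108, 141, and 130.4 CPM in mutant *mylz2*+ cells, against 13.2, 24.8, 27.5, and 20.3 CPM in WH *mylz2*+ cells. WH *sox10*+ replicate 1 was the highest of its group. *hspa4l*, of the same Hsp110 family, was a member from outside the list (centred log2 ratios 1.89 in *sox10*+ and 2.02 in *mylz2*+ cells).

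The remaining high-ranking members had no common pathway among the lists. *caprin2*, an RNA-binding protein, came after *aifm4* in rank. It had 18.8, 17.7, and 26.3 CPM in mutant *sox10*+ cells, against 0.730, 0, 0.0173, and 0 CPM in WH *sox10*+ cells. It had 21.8, 30.6, and 19.7 CPM in mutant *mylz2*+ cells, against 0.573, 2.60, 1.04, and 1.14 CPM in WH *mylz2*+ cells. It was at or near 0 in 3 WH *sox10*+ libraries. *bmb* (brambleberry), known in zebrafish for joining nuclear membranes in the early embryo, had 13.9, 11.4, and 19.8 CPM in mutant *sox10*+ cells, against 0.930, 3.66, 1.07, and 4.06 CPM in WH *sox10*+ cells. It had 35.4, 33.3, and 30.0 CPM in mutant *mylz2*+ cells, against 3.63, 2.02, 1.89, and 4.24 CPM in WH *mylz2*+ cells. *gra*, the aminoacylase *acy3.1*, the chromatin reader *brd8*, the Golgi GTPase *arf3*, the transporter partner *emb* (embigin), *rab36*, the lipase *abhd4*, the anoctamin *ano9a*, *znf326*, and *si:ch211-93g23.2* completed the 30 highest, with centred log2 ratios between 2.01 and 3.82 in *sox10*+ and between 2.02 and 2.43 in *mylz2*+ cells. The neighbors *tpmt.1* and *tpmt.2*, thiopurine methyltransferases, were both members (centred log2 ratios 1.57 in *sox10*+ and 2.33 in *mylz2*+ cells for *tpmt.1* and 1.94 in *sox10*+ and 1.89 in *mylz2*+ cells for *tpmt.2*). No read was found for 2 members, *slc25a24l* and ENSDARG00000099586, in any WH *sox10*+ library. Their mean levels in mutant *sox10*+ cells were 260.3-fold and 221-fold a floor of 3 counts per library, which covers counting error only. On the CPM + 1 scale the folds were 14.4 and 12.4. Both already had centred ratios above the *sox10*+ median of 1.82, so placing them at this floor could not change that median.

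Lower-ranked members fell into several kinds of function, sorted after their values were seen. Genes of vesicle traffic and the Golgi (*rab39b*, *rab43*, *vps33b*, *exoc5*, *ap4e1*, *chm*, *man2a1*, and *tmed4*) had centred log2 ratios between 1.31 and 1.62 in *sox10*+ and between 1.34 and 2.17 in *mylz2*+ cells. Genes of RNA handling, among them the export factor *nup42*, the translational repressor partner *eif4enif1*, the exon junction protein *magohb*, the polymerase subunit *polr2i*, the tRNA methyltransferase *trmt10a*, and the selenocysteine enzyme *sepsecs*, had ratios between 1.52 and 2.03 in *sox10*+ and between 1.39 and 1.85 in *mylz2*+ cells. The peptidases *thop1*, which cuts short peptides, and *ctsh*, a lysosomal cathepsin, had centred log2 ratios of 1.74 in *sox10*+ and 1.82 in *mylz2*+ cells for *thop1* and 1.43 in *sox10*+ and 1.32 in *mylz2*+ cells for *ctsh*. Further ubiquitin-linked members were *ubl7b*, *ubfd1*, *rnf181*, *usp38*, and *hecw2*, with ratios between 1.36 and 1.98 in *sox10*+ and between 1.32 and 2.14 in *mylz2*+ cells. The microsomal glutathione transferase *mgst1* had centred log2 ratios of 1.34 in *sox10*+ and 1.99 in *mylz2*+ cells, the iron-sulfur assembly factor *ciapin1* 1.92 in *sox10*+ and 1.47 in *mylz2*+ cells, the NF-kappaB cofactor *bcl3* 2.83 in *sox10*+ and 1.77 in *mylz2*+ cells, and *mrnip*, the neighbor of *sqstm1*, 1.35 in *sox10*+ and 1.48 in *mylz2*+ cells.

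Counts over the whole gene lists set the members in context. In *sox10*+ cells 2.1% of all genes tested rose and 1.61% fell; in *mylz2*+ cells 10.7% rose and 11.6% fell. Of 59 proteasome genes tested, 48 rose and 0 fell in *sox10*+ cells (median log2 fold change 1.88, against -0.02 over all genes) and 52 rose and 1 fell in *mylz2*+ cells (median 1.43, against 0.01). These counts and medians, and those of the lists that follow, include the members, whose direction was fixed by their choice. The same over the non-members was given above for the proteasome list and is given with the others. Some of these non-members also met every limit of the choice and only ranked lower. Of 44 genes of ubiquitin handling and p97, 18 rose and 0 fell in *sox10*+ cells (median 0.69), and 25 rose and 4 fell (among them *zfand5a*, *sel1l*, and *herpud1*) in *mylz2*+ cells (median 0.74). Without the 6 members, 12 of 38 rose in *sox10*+ cells (median 0.56) and 19 of 38 in *mylz2*+ cells (median 0.57). The ubiquitin-activating enzyme *uba1*, which is not a member, had a log2 fold change of 1.39 ± 0.15 (SE), edgeR adjusted p = 0.0012 in *sox10*+ and a log2 fold change of 1.71 ± 0.13 (SE), edgeR adjusted p = 4.2e-05 in *mylz2*+ cells. The polyubiquitin gene *ubb* (ENSDARG00000002369) had a log2 fold change of 1.12 ± 0.17 (SE), edgeR adjusted p = 0.006 in *sox10*+ and a log2 fold change of 0.99 ± 0.12 (SE), edgeR adjusted p = 3.9e-04 in *mylz2*+ cells, and *ubc* had a log2 fold change of 1.00 ± 0.25 (SE), edgeR adjusted p = 0.064 and a log2 fold change of 0.39 ± 0.13 (SE), edgeR adjusted p = 0.054. The whole-list ubiquitin count in *sox10*+ cells was 11 without mutant replicate 1.

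Of 39 oxidant defense genes tested, 10 rose and 0 fell in *sox10*+ cells (median 0.75), and 21 rose and 1 fell (*mgst3*) in *mylz2*+ cells (median 0.85). Without the 5 members, 5 of 34 rose in *sox10*+ cells (median 0.47) and 16 of 34 in *mylz2*+ cells (median 0.59). The microsomal transferase *mgst3b* had a log2 fold change of 1.37 ± 0.19 (SE), edgeR adjusted p = 0.0044 in *sox10*+ and a log2 fold change of 1.79 ± 0.16 (SE), edgeR adjusted p = 8.0e-05 in *mylz2*+ cells. *gstp1.2*, a glutathione transferase, had a log2 fold change of 0.28 ± 0.22 (SE), edgeR adjusted p = 0.63 in *sox10*+ and a log2 fold change of 2.11 ± 0.21 (SE), edgeR adjusted p = 1.2e-04 in *mylz2*+ cells. The whole-list oxidant count in *sox10*+ cells was 4, 6, and 5 without mutant replicate 1, 3, and 4. Of 60 co-chaperone and chaperonin genes, 18 rose and 0 fell in *sox10*+ cells (median 0.58), and 36 rose and 2 fell (*fkbp5* and *dnajb6b*) in *mylz2*+ cells (median 0.68). Without *hsph1*, 17 of 59 rose in *sox10*+ and 35 of 59 in *mylz2*+ cells, with medians of 0.58 and 0.68. The chaperonin subunit *cct3* had a log2 fold change of 1.18 ± 0.16 (SE), edgeR adjusted p = 0.0041 in *sox10*+ and a log2 fold change of 1.41 ± 0.12 (SE), edgeR adjusted p = 6.0e-05 in *mylz2*+ cells. The whole-list co-chaperone count in *sox10*+ cells was 6, 7, and 6 without mutant replicate 1, 3, and 4 and 8 without WH replicate 2.

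The remaining lists held few or no members. Of the autophagy genes that were not members, 1 of 44 rose (*atg5*) and 1 fell (*ulk2*) in *sox10*+ cells, with a median of 0.15, and 12 of 42 rose and 3 fell (*map1lc3b*, *ulk1a*, and *ulk2*) in *mylz2*+ cells, with a median of 0.08. With the members *sqstm1* and *atg14*, whose direction their choice fixed, the counts were 3 of 46 and 14 of 44. *map1lc3b*, which coats autophagosomes, had a log2 fold change of -0.15 ± 0.15 (SE), edgeR adjusted p = 0.74 in *sox10*+ and a log2 fold change of -0.51 ± 0.12 (SE), edgeR adjusted p = 0.014 in *mylz2*+ cells, and the adaptor *tax1bp1* a log2 fold change of 0.53 ± 0.15 (SE), edgeR adjusted p = 0.089 and a log2 fold change of 0.45 ± 0.10 (SE), edgeR adjusted p = 0.011. Of the DNA damage and apoptosis list, which held no member, 5 of 50 genes rose (among them *ccng1*, *rps27l*, and *junb*) and 0 fell in *sox10*+ cells (median 0.18), and 18 of 49 rose and 3 fell in *mylz2*+ cells (median 0.42). The *sox10*+ count was 1 without mutant replicate 1, 3, or 4. The cyclin *ccng1* had a log2 fold change of 0.76 ± 0.14 (SE), edgeR adjusted p = 0.015 in *sox10*+ and a log2 fold change of 1.23 ± 0.15 (SE), edgeR adjusted p = 3.8e-04 in *mylz2*+ cells.

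The list of the amino acid response and tRNA charging held no member either. Of its 54 genes tested, 2 rose (*cebpb* and *yars1*) and 2 fell (*phgdh* and *stc2*) in *sox10*+ cells, with a median of -0.04, and 10 rose and 9 fell in *mylz2*+ cells, with a median of 0.04. The rise count in *sox10*+ cells was 0 without mutant replicate 1, 3, or 4 or WH replicate 2 or 3, and 1 without WH replicate 1. *atf4b*, the transcription factor of this response, had a log2 fold change of 0.52 ± 0.16 (SE), edgeR adjusted p = 0.12 in *sox10*+ and a log2 fold change of 0.18 ± 0.11 (SE), edgeR adjusted p = 0.32 in *mylz2*+ cells. The stress factor *atf3* had a log2 fold change of 0.33 ± 0.18 (SE), edgeR adjusted p = 0.43 in *sox10*+ and a log2 fold change of 0.20 ± 0.16 (SE), edgeR adjusted p = 0.45 in *mylz2*+ cells. The difference between the 2 cell types was not tested for any list.

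**Figure D5:**
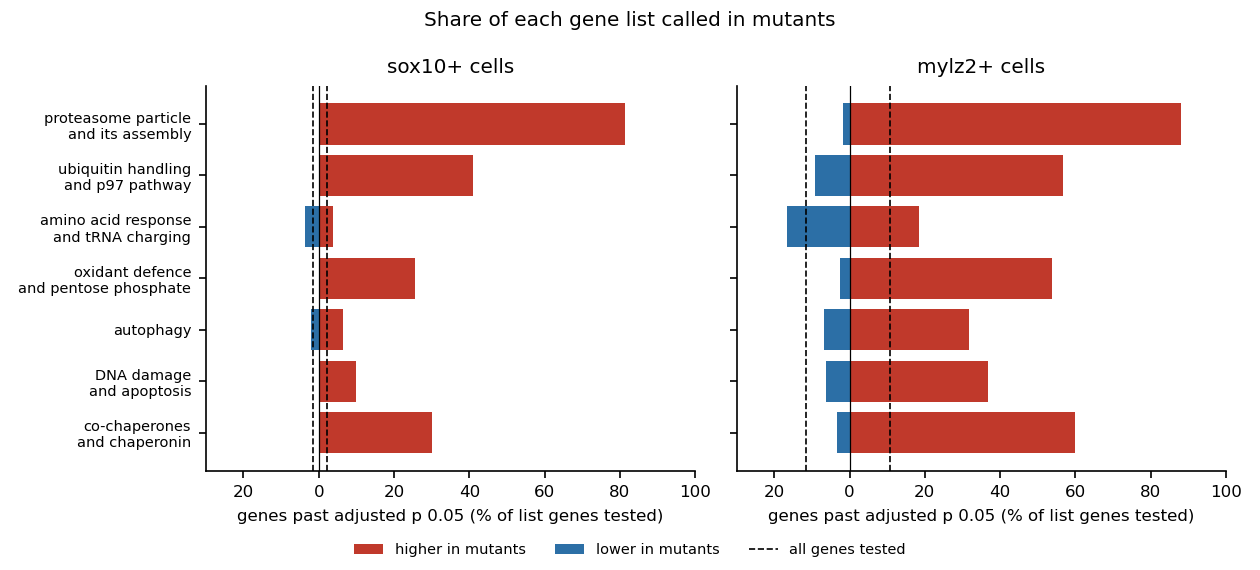
Share of each gene list past the edgeR test (adjusted p under 0.05) in *sox10*+ cells (left) and *mylz2*+ cells (right), with genes higher in mutants in red to the right and genes lower in mutants in blue to the left; dashed lines mark the shares over all genes tested (2.1% higher and 1.61% lower in *sox10*+ cells, 10.7% and 11.6% in *mylz2*+ cells). The proteasome list reaches 48 of 59 genes in *sox10*+ and 52 of 59 in *mylz2*+ cells, while the amino acid list lies near the dashed lines; members are counted, and their direction was fixed by their choice.

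The members were also described by how they varied between replicates. Their summed level was 22589, 20132, and 20468 CPM in mutant *sox10*+ cells, against 3942, 4558, 5207, and 5075 CPM in WH *sox10*+ cells. It was 28717, 32302, and 28351 CPM in mutant *mylz2*+ cells, against 6586, 6742, 8367, and 6958 CPM in WH *mylz2*+ cells. The library titled replicate 3 was the highest in both genotypes of *mylz2*+ cells, for 115 of 150 members among mutants and for 104 of 150 among WH. How many of all kept genes were highest in the libraries of that title was not counted, so this may not be particular to the members. The mutant library of that title is numbered 2 in its description, so the shared number is not certain. The median coefficient of variation of the members was 12.7% in mutant and 28.8% in WH *sox10*+ cells, against 20.0% and 28.3% for all kept genes. In *mylz2*+ cells it was 11.9% in mutant and 26.7% in WH libraries, against 17.8% and 18.6% for all kept genes. The choice used these same replicate values and required groups without overlap, so the spreads of the members are not independent of it. In *sox10*+ cells the lowest mutant library exceeded the highest WH library at least 2-fold for 128 members, and in *mylz2*+ cells for 148. The choice required some such gap for every member. Among all kept genes, every mutant library lay above every WH library for 21.5% in *sox10*+ cells and 41.8% in *mylz2*+ cells. The share was 16% for both cell types together. How many kept genes had a 2-fold gap was not counted. The mean WH levels of 119 members lay within 2-fold of each other in the 2 cell types, after adding the same constant as for the evenness limit. For low levels this constant narrows the ratio. *caprin2* was counted, with means of 0.187 CPM in WH *sox10*+ and 1.34 CPM in WH *mylz2*+ cells.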

How the data were processed

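RNA-seq was run on 14 libraries of sorted cranial cells from 72 hpf zebrafish larvae, amplified with an ultra-low-input SMART-Seq kit. The authors deposited raw counts per Ensembl gene, 1 table per cell type, and per the labels and the study's methods reads were aligned to GRCz11 with STAR and tested with DESeq2. Tool versions, the counting tool, and strand use were not given in the sources used here, so reads of overlapping, antisense, or near-identical genes may be divided or shared. Columns of other samples numbered 0.

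Groups followed the sample titles. CPM were computed on library totals. Each cell type was tested alone, mutant against WH, with edgeR 4.0.16 in R 4.3.3 (quasi-likelihood test, TMM, filterByExpr, Benjamini-Hochberg adjusted p under 0.05), and the procedure was tested on simulated data. Alternatives were DESeq2 1.42.0, other scalings, no filter, blocking on the replicate number, and fits without 1 library at a time. A level of 3 counts per library, 0.029 to 0.0547 CPM, was the floor, which covers counting error only. The labels call the replicates biological but name no clutch for any pool, so p-values measure the spread between these pools. The study's methods state that siblings matched by clutch were used, and the main fits did not model such a pairing. No 2 libraries were identical.

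The members and gene lists were chosen with earlier results of these data known. Named members were the 30 with the highest lower ratio, those in a gene list, those at the limit, and paralogs of members. Named non-members were at most 5 per list, those with the highest mean CPM. Other genes named were chosen after their values were seen. Counts were not scaled by gene length, so CPM of different genes are not on a common scale. This limits the ratio of *psmb1* to the mean of *psmb2* to *psmb7* within a group, and the levels of *psma6l* set beside *psma6*. Gene order came from the RefSeq table of assembly GRCz12tu, used only for neighbors. Promoter and protein sequences were not analysed here, and 10 genes set aside by the choice and some others are not reported here.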

Additional observations from a re-analysis of the deposited data

Results flagged for a closer look

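Among 64 groups of 4 WH libraries compared, 10 held 1 library whose gap to the nearest other library, as a share of the group's range, exceeded Dixon's limit for 4 values. Chance gives about 1 in 20 such groups for normally distributed values. Some of the groups, such as those of *isg15*, *caprin2*, and *psma6l*, lay at or near 0, so 10 of 64 cannot be read against that share. In WH *sox10*+ cells, *isg15* had a share of 1 (0.420 CPM in replicate 1 and 0 in the others), *caprin2* 0.976 (0.730 CPM in replicate 1, against at most 0.0173), and *psma6l* 0.940 (0.306 CPM in replicate 2, against at most 0.0182). *psmd5* had 0.931 (32.5 CPM in replicate 4, against 10.1 to 11.6), *ecpas* 0.903 (52.3 CPM in replicate 3, against 38.4 to 39.7), and *psmb1* 0.854 (53.0 CPM in replicate 1, against 83.0 to 88.1). *sqstm1* had 0.834 (38.9 CPM in replicate 4, against 33.2 to 34.2), *aifm4* 0.833 (10.3 CPM in replicate 2, against 5.62 to 6.4), and *slc40a1* 0.832 (9.35 CPM in replicate 4, against 31.0 to 35.4). In WH *mylz2*+ cells, *psmd10* had 0.838 (20.6 CPM in replicate 3, against 13.4 to 14.5). For the 9 members among these genes, the choice itself required every mutant library to lie above each of these WH libraries. The *psmb1* groups overlapped in *sox10*+ cells.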

How the results depend on the processing

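Of the 150 members, 149 met every limit on TMM-scaled CPM, 150 with a pseudocount of 0.5, 133 with a pseudocount of 5, and 149 to 150 when 1 library was left out. Fewer stayed among the 150 highest. These were 144 on TMM-scaled CPM, 135 with a pseudocount of 0.5, 113 with a pseudocount of 5, and 132 to 143 when 1 library was left out. The proteasome list had 43 to 50 higher genes in *sox10*+ and 52 in *mylz2*+ cells without 1 library. Without 1 library, *sox10*+ counts ranged from 293 to 1018 for all genes and, for genes called higher, from 11 to 20 (ubiquitin), 0 to 3 (amino acid), 4 to 11 (oxidant), 1 to 6 (DNA damage), and 6 to 19 (co-chaperones). With DESeq2 the *sox10*+ counts were 2443 for all genes (45.4% higher), 6 for amino acid, 6 for autophagy, and 10 for DNA damage, and RLE factors gave 1 for amino acid. Matching by the titles' replicate numbers showed no clear pairing (correlations of deviations -0.0426 to 0.055, own number best for 1 of 3 in each cell type). With 3 mutant libraries per cell type, and 1 number uncertain, this check cannot exclude a pairing. The replicate block left 174 genes in *sox10*+ cells, with 6 for ubiquitin, 0 for amino acid, 1 for oxidant, 0 for DNA damage, and 1 for co-chaperones, and 3742 genes in *mylz2*+ cells, or 3286 with the numbers of the descriptions. Library totals moved the all-gene median (log2 fold change) to 0.12 in *sox10*+ and 0.41 in *mylz2*+ cells and gave 24 amino acid genes in *mylz2*+ cells. They also reversed the sign of the log2 fold change of *prdx1* (0.0595), *nicn1* (0.013), *becn1* (0.036), *cops9* (0.033), and *prdx5* (0.058) in *sox10*+ cells and of *tpgs1* (0.16), *ncoa4* (0.37), *prdx3* (0.14), and *irf9* (0.26) in *mylz2*+ cells, where *prdx1* is ENSDARG00000025350. The block by the number of the description, which for 1 mutant *mylz2*+ library is 2 and not the 3 of its title, reversed *ncoa4* (0.014) in *mylz2*+ cells. Leaving out 1 library changed signs in *sox10*+ cells for *psmb1* (-0.079 to 0.16), *nicn1* (-0.81 to 0.46), *tfr1b* (-0.11 to 0.32), *aifm1* (-0.092 to 0.13), *tpgs1* (-0.29 to 0.092), *prdx1* (-0.14 to 0.033), *ncoa4* (-0.092 to 0.18), *fth1a* (-0.079 to 0.30), *becn1* (-0.21 to 0.021), *cops9* (-0.25 to 0.072), and *prdx5* (-0.19 to 0.099), and in *mylz2*+ cells for *uchl3* (-0.013 to 0.093), *prdx1* (-0.033 to 0.16), *gpx4* (-0.015 to 0.23), and *ncoa4* (-0.085 to 0.011). The cause was not tested.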

Other observations

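By symbol, 126 members were placed on 24 chromosomes of the RefSeq assembly GRCz12tu. At most 2 protein-coding genes apart lay 3 pairs of members: *sqstm1* and *mrnip*, *tpmt.1* and *tpmt.2*, and *fthl28* and *fthl31*. Another 34 genes met every limit except that of even WH levels between the cell types, among them *psme1* and *psme2*. A list of 6 glia genes summed to 456 to 531 CPM in mutant and 1320 to 2661 CPM in WH *sox10*+ cells. It was lower in every mutant library, and its part in the results was not tested.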
